A study of Mus musculus with 8 samples.

Results

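Conventional dendritic cells (cDCs) outside the Ccl22 programme were taken from single-cell RNA libraries of the mouse colonic lamina propria. They were barcodes with transcripts of dendritic cell markers and with few or none of some chosen markers of other lineages. A barcode entered with at least 400 genes, under 20% mitochondrial transcripts, at least 2 unique molecular identifiers (UMIs, which count single captured transcripts) summed over Flt3, Xcr1, Cd209a and Itgax, and at least 10 UMIs of Cd74. It had at most 1 UMI of Ccl22 and Ccl17 together, at most 2 of C1qa, C1qb and C1qc together, at most 2 of Col3a1, and none of Cd3d, Cd3e, Cd3g or Cd79a. The rule kept 317 of 96721 quality-passing barcodes, out of 100673 in all. All mice were C57BL/6, 10 to 12 weeks old, and came from 2 genotypes, wildtype and a mutant with 1 amino acid exchanged in the transcription factor RORgt, called S203AKI in the sample titles and RORgtS182A in the series title. DSS mice drank 2% dextran sulfate sodium, which injures the colonic epithelium, for 7 days and plain water for 3 days, untreated mice drank plain water, and all were harvested on day 10. Each of the 4 groups (untreated wildtype, untreated S203AKI, DSS wildtype, DSS S203AKI) held 2 libraries, described in the labels as independent biological replicates. The cells had been passed through a CD4+ T cell isolation kit before loading, so the dendritic cells are those that came through an enrichment aimed at another lineage.

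Conventional dendritic cells take up antigen in tissues and present it to T cells on MHC class II, and they develop under the growth factor receptor FLT3. Type 1 cells (cDC1) depend on IRF8 and BATF3, carry the chemokine receptor XCR1 and the dead-cell receptor CLEC9A, and are known for presenting captured antigen to CD8 T cells. Type 2 cells (cDC2) are more varied, rely on IRF4 and ZEB2 among other factors, carry lectins such as CD209a and CLEC10A, and are known for priming helper T cells. In the gut both kinds sample antigen from the epithelium and migrate through CCR7 to the draining lymph nodes, where the mature state makes Ccl22 and Ccl17.

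Libraries held 34497509 to 46960005 UMIs and 10340 to 15370 quality-passing barcodes. Member barcodes had a median of 5335 UMIs over all libraries, against library medians of 1886 to 3019 for all quality-passing barcodes, and together carried 1895413 UMIs, from 79258 in DSS S203AKI 2 (10 members) to 314914 in untreated wildtype 2. Any 2 libraries shared 19 to 59 barcode sequences, no member barcode was a member in 2 libraries, and 8 member barcodes also passed quality in another library. At the edges of the rule, 139 members had exactly 2 UMIs of the 4 dendritic cell genes, and 269 barcodes that met every other limit had 1. The Cd74 limit had 17 members just inside and 8 barcodes just outside, the Ccl22 and Ccl17 limit 35 and 14, and the C1q limit 56 and 27.

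Members were chosen by their UMI counts of the genes of the rule, whose values are therefore only described. Levels below are counts per 1e+06 UMIs (CPM) of the UMIs summed over the barcodes named. Flt3 was at 157 CPM over all members and at 1.02 CPM in 6699 barcodes of the C1q-carrying macrophage gate, and it was seen in 176 of the 317 members. Itgax, which macrophages share, was at 200.5 CPM in members and 182 CPM in the macrophage gate. Genes outside the rule showed the following. Zbtb46, a transcription factor of the cDC lineage, was at 40.6 CPM in members and 2.08 CPM in the macrophage gate. The MHC class II chain H2-Aa stood at 6880 CPM in members and 7717 CPM in macrophages. Apoe, an abundant lipoprotein gene of tissue macrophages, was at 151 CPM in members against 17978 CPM in the macrophage gate. Ccr7 was at 608 CPM, and at 1416 CPM in the 61 barcodes that met the rule except for 2 or more UMIs of Ccl22 and Ccl17.

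The label was also checked by summed markers that the rule did not use, of dendritic cells and of other lineages. Shared cDC markers ran from 955 to 1320 CPM in the libraries, against 321 CPM in the macrophage gate. For cDC1 markers the sums were 1731 to 2939 CPM, against 1741 CPM in that gate. The cDC2 list went the other way, at 882 to 1472 CPM in members and 2171 CPM in the macrophage gate. Plasma cell markers stood at 258 to 1303 CPM in 7 libraries and at 6757 CPM in untreated wildtype 2, which also had the highest neutrophil sum, 383 CPM, against 22.0 CPM or less elsewhere. Monocyte markers ran from 1060 to 2611 CPM, against 6615 CPM in the macrophage gate, and T cell markers from 25.2 to 281 CPM. Markers of NK and innate lymphoid cells were at 102 to 238 CPM in untreated wildtype, 43.0 to 93.4 in untreated S203AKI, 285 to 491 in DSS wildtype and 122 to 202 in DSS S203AKI, with Ncr1, Klrb1c and Il13 at 0. Il22, a gene of this list, alone was at 353 and 131 CPM in DSS wildtype and at 3.39 and 0 CPM in DSS S203AKI. Without DSS it was at 93.7 and 0 CPM in wildtype and at 3.91 and 0 CPM in S203AKI. Its UMIs came from 6 members, of which 1 held 51.2%. Plasmacytoid dendritic cells (pDCs) are interferon-producing relatives that also carry FLT3. Of the 317 members, 29 had 2 or more UMIs of plasmacytoid markers, 1 to 6 in each library, and 15 of those 29 had a Cd4 UMI, against 14 of the other 288. None of the 29 carried Xcr1, 17 were in the Flt3-only class, 10 carried Cd209a and 2 were in the Itgax-only class. At an equal depth of 1000 UMIs a Cd4 UMI remained in 4 of the 29 (13.8%) and in 2 of 287 others (0.697%). The retinoic acid enzyme gene Aldh1a2 was seen in 9 members and Itgb8, a chain of the integrin that activates TGF-beta, in none. Il12b, a subunit of IL-12 and IL-23, was seen in 13 members at 51.2 CPM over all of them, and stood at 607 CPM in the Ccl22 and Ccl17 barcodes.

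Members divided by marker UMI into 73 with Xcr1, 91 with Cd209a, 98 with Flt3 but neither, and 55 with Itgax alone. No barcode carried both Xcr1 and Cd209a. Clec9a, which the rule did not use, was at 111 CPM in Xcr1 members, 11.7 CPM in Cd209a members and 53.5 CPM in Flt3-only members. Clec10a was at 1.66 CPM in Xcr1 members, 215 CPM in Cd209a members and 43.1 CPM in Flt3-only members. Flt3-only members therefore held transcripts of both kinds. Itgax-only members had the most Apoe, 567 CPM, and the most Lyz2, 1938 CPM, a lysozyme gene of myeloid cells. Both were below the macrophage gate, where Lyz2 was at 6203 CPM. Median depth was 7988 UMIs in Xcr1 members, 4447 in Cd209a members, 4890.5 in Flt3-only members and 5392 in Itgax-only members.

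**Figure D1:**
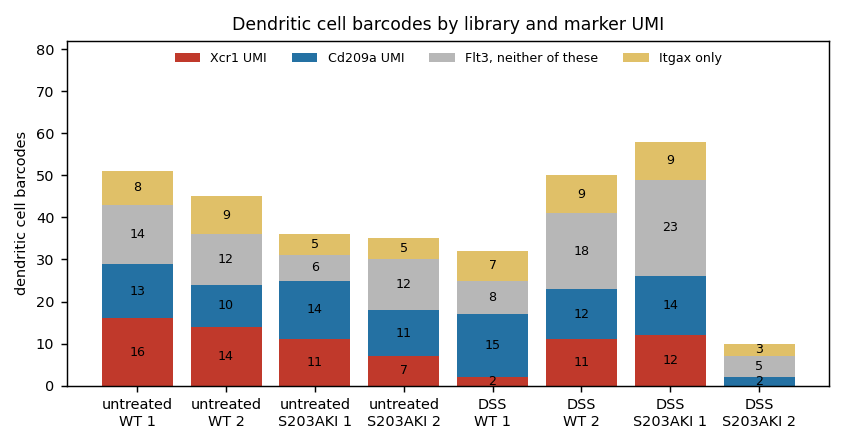
Dendritic cell barcodes in each of the 8 libraries (y axis, barcodes), stacked by the marker UMI they carry (Xcr1, Cd209a, Flt3 without either, Itgax alone). The libraries hold 32 to 58 barcodes except DSS S203AKI 2, which holds 10 and none with Xcr1.

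Members numbered 51 and 45 in the untreated wildtype libraries, 36 and 35 in untreated S203AKI, 32 and 50 in DSS wildtype, and 58 and 10 in DSS S203AKI. As a share of quality-passing barcodes this was 0.385% and 0.376% in untreated wildtype, 0.341% and 0.318% in untreated S203AKI, 0.296% and 0.373% in DSS wildtype, and 0.377% and 0.0967% in DSS S203AKI. The last library stood below all others, with an exact (Clopper-Pearson) 95% interval of 0.0464% to 0.178% that covers counting error only. The isolation kit can set such shares. The mean share was 0.286% ± 0.131 (SD, n = 4) after DSS and 0.355% ± 0.0307 (SD, n = 4) without it, a difference smaller than the spread after DSS (exact two-sided permutation test, p = 0.429, adjusted p = 0.549 over 6 such tests, in which 0.0286 is the smallest p possible). The S203AKI libraries averaged 0.283% ± 0.127 (SD, n = 4) and the wildtype libraries 0.357% ± 0.0414 (SD, n = 4), with p = 0.343 by the same exact test and an adjusted p of 0.549. Without DSS S203AKI 2 these differences of -0.0694 and -0.0737 percentage points were -0.00648 and -0.0115. Members were also taken as a share of quality-passing barcodes with at least 10 Cd74 UMIs and no UMI of Cd3d, Cd3e, Cd3g or Cd79a. By that share the sign turned, with a difference of 0.568 percentage points between DSS and untreated libraries (exact permutation p = 0.486).

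Among members with Xcr1 or Cd209a, Xcr1 made up 55.2% and 58.3% in untreated wildtype, 44.0% and 38.9% in untreated S203AKI, 11.8% and 47.8% in DSS wildtype, and 46.2% and 0% in DSS S203AKI. The first DSS wildtype and the second DSS S203AKI library were low, and the other 2 DSS libraries lay within the untreated range. The last value rests on 2 barcodes, so a share of up to 84.2% lies inside its exact 95% interval. The means were 26.4% ± 24.2 (SD, n = 4) after DSS and 49.1% ± 9.17 (SD, n = 4) without, which the exact two-sided permutation test did not separate (p = 0.171, adjusted p = 0.549). Without the second DSS S203AKI library the difference went from -22.7 to -13.9 percentage points, a change of more than 1.5 times. For S203AKI against wildtype the means were 32.3% ± 21.7 and 43.3% ± 21.5 (SD, n = 4 each; exact permutation p = 0.457, adjusted p = 0.549), and the difference of -11.0 points was -0.260 without that same library and -21.5 without DSS wildtype 1.

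Dividing members were counted as those with 2 or more UMIs over the mitotic genes Mki67, Top2a, Ccna2, Ccnb1, Ccnb2, Cdk1, Birc5 and Ube2c. They were 75 of 317, among them 28 of the 73 Xcr1 members, 14 of the 91 Cd209a members, 20 Flt3-only and 13 Itgax-only members, and none of the 29 with plasmacytoid markers. Shares by library ran from 17.2% in DSS S203AKI 1 to 35.6% in untreated wildtype 2. The mean was 21.8% ± 5.84 (SD, n = 4) after DSS and 27.9% ± 7.03 (SD, n = 4) without (exact permutation p = 0.229, adjusted p = 0.549). It was 25.9% ± 6.41 in S203AKI and 23.8% ± 8.02 in wildtype libraries (SD, n = 4 each; exact permutation p = 0.714). The deeper Xcr1 members had more UMIs in which to find such genes, and that part in the difference between classes was not tested.

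Xcr1 and Cd209a members were then compared within libraries. Xcr1 members carried more of the cDC1 regulator Irf8, of the endosomal and lysosomal genes Rab7b, Ppt1 and Cst3, and of the surface genes Cd81 and Cd24a. They carried less of the oxidase subunit Cybb, the Fc receptor chain Fcer1g, the transcription factor Zeb2 and the calcium-binding S100a4. The comparison used the 5 libraries with at least 10 members of each kind (64 Xcr1 and 63 Cd209a members), with library as a term in edgeR's quasi-likelihood test. Of 989 genes tested, 211 passed an adjusted p of 0.05 (Benjamini-Hochberg; 21.3%), 91 higher (9.2%) and 120 lower (12.1%) in Xcr1 members, and 307 (31%) had an unadjusted p under 0.05. Xcr1 and Cd209a themselves are among the calls, which leaves 209. A gene absent from one side could enter only through the other, so the count is not a share of all genes.

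Promoters of the leading gene with a sequence entry in each direction, Cd81 for Xcr1 members and Cybb for Cd209a members, are printed to show the DNA from which the best separated genes are read. They cover the 250 bases before the start in RefSeq, on GRCm38.p6, at chr7:143052500-143052749 (plus strand, Cd81, ENSMUSG00000037706) and chrX:9469325-9469574 (minus strand, Cybb, ENSMUSG00000015340). Capitals mark matches, on either strand, to GAAANNGAAA, GAGGAAGT or TGANTCA, the general forms of the interferon response element, the PU.1 site and the AP-1 site.
Cd81: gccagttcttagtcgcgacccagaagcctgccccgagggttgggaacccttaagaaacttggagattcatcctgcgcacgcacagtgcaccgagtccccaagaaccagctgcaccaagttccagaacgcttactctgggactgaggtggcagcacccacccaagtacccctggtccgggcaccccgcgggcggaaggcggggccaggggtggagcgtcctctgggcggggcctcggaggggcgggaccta
Cybb: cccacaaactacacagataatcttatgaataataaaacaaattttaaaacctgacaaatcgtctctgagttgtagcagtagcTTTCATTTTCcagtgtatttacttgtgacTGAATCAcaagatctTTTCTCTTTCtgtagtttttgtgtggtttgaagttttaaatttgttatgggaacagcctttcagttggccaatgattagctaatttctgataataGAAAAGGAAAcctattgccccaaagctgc
The Cybb window held 3 matches to GAAANNGAAA, starting at bases 83, 127 and 222 of the printed strand, and 1 to TGANTCA at base 112, with no overlap among them. The Cd81 window held none. GAAANNGAAA was in 2.98% of the 32851 promoters of this length, in 2.53% of the 79 of genes higher in Xcr1 members, in 6.72% of the 119 of genes lower in them, and in 2.95% of the 950 of all genes tested. For TGANTCA these shares were 6.75%, 2.53%, 7.56% and 5.47%, and for GAGGAAGT 2.44%, 1.27%, 5.04% and 2.42%. A match describes the letters only.

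Among genes higher in Xcr1 members, Irf8 (ENSMUSG00000041515) was at 1224, 839, 1124, 733 and 819 CPM in Xcr1 members of untreated wildtype 1, untreated wildtype 2, untreated S203AKI 1, DSS wildtype 2 and DSS S203AKI 1. In Cd209a members of the same libraries it was at 182, 34.4, 374, 20.6 and 30.0 CPM. The lowest Xcr1 value was above the highest Cd209a value, and the log2 difference was 3.03 (SE 0.35, edgeR adjusted p = 3.06e-06). Rab7b, a small GTPase of late endosomes, ranged from 142 to 440 CPM in Xcr1 members and was listed in Cd209a members of 1 library only, at 27.7 CPM (log2 difference 5.20, SE 0.58, edgeR adjusted p = 2.24e-06). Cd81, a tetraspanin that organises membrane receptors, ranged from 142 to 356 CPM against 0 to 26.0 CPM (means 257 ± 77.5 and 7.96 ± 11.7, SD, n = 5). Ppt1, the lysosomal palmitoyl-protein thioesterase, averaged 755 ± 104 CPM against 63.3 ± 27.9 CPM (SD, n = 5), a log2 difference of 3.66. Cst3, the cathepsin inhibitor cystatin C, averaged 18136 against 3892 CPM (log2 difference 2.35, edgeR adjusted p = 2.06e-08).

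The remaining named genes higher in Xcr1 members were Ncoa7, Serpinb6b, Adam8, Cd24a, Naaa, Rgs10 and Trim35, with log2 differences of 2.17 to 4.06. Naaa, a lysosomal hydrolase of lipid amides, was at 489 ± 80.5 against 96.3 ± 54.7 CPM (SD, n = 5). Wdfy4, which cDC1 need to present dead-cell antigen on MHC class I, was at 460 ± 88.6 against 109 ± 82.5 CPM (log2 difference 2.08, edgeR adjusted p = 0.000169).

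On the Cd209a side, Cybb was at 780, 413, 374, 473 and 586 CPM in the 5 libraries in the order above, and at 9.27, 31.1, 9.37, 25.7 and 12.2 CPM in Xcr1 members. It encodes the membrane subunit of the phagocyte oxidase, and its log2 difference was -4.70 (SE 0.38, edgeR adjusted p = 3.55e-08). Fcer1g, the signalling chain shared by Fc receptors, was at 961 to 1290 CPM against 38.9 to 102 CPM (-3.88, SE 0.25). Zeb2, a repressor that favours cDC2 and monocyte fates, was at 315 ± 133 CPM against 20.8 ± 19.9 CPM (SD, n = 5; -3.86, edgeR adjusted p = 1.56e-06). S100a4 was at 1143 ± 374 CPM against 95.5 ± 48.1 CPM (SD, n = 5), a log2 difference of -3.57. The other named genes lower in Xcr1 members were Ms4a6c, Ly6a, Sdc4, Dab2, Tnip3, Marcksl1, Wfdc17 and Ifitm3, at -3.08 to -4.28. Ifitm3, an interferon-induced membrane protein, ranged from 1741 to 3407 CPM against 93.7 to 733 CPM. In the macrophage gate, Cybb was at 986, Fcer1g at 1978.5 and Zeb2 at 1162 CPM, so high levels of these were not particular to Cd209a members. S100a4 and Ifitm3 were lower there, at 61.9 and 293 CPM.

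**Figure D2:**
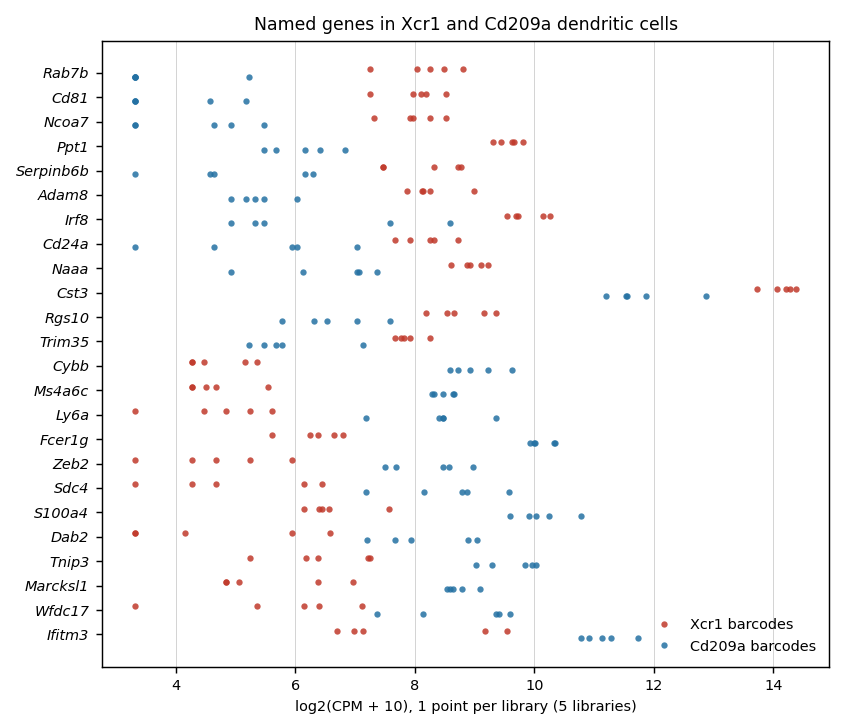
Levels of the named genes, as log2(CPM + 10) on the x axis, in Xcr1 members and in Cd209a members, with 1 point per library for the 5 libraries compared. The genes were picked for the size of this difference, so the gap between the 2 kinds follows from the choice. Cybb runs from 9.27 to 31.1 CPM in Xcr1 members and from 374 to 780 CPM in Cd209a members.

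By gene group, the counts stand against 9.2% of all tested genes higher and 12.1% lower. Of the lists, 6 of 7 tested cDC1 markers outside the rule were higher in Xcr1 members (Ppt1, Rab7b, Irf8, Naaa, Cd24a and Wdfy4). The list median was 2.62 against 0.02 for all genes tested. Only these 7 of the 14 listed outside the rule were tested. A marker low in Cd209a members could enter through the Xcr1 side, so this count is no test of the label. Of 14 cDC2 markers outside the rule, 2 were tested. Tnip3 was lower in Xcr1 members. Klf4 was not called and went the other way, at 207 against 173 CPM (0.41, edgeR adjusted p = 0.508). In MHC class I and cross-presentation, 3 of 10 tested genes were higher, the immunoproteasome subunits Psmb9 and Psmb8 and Wdfy4, and 1 was lower, B2m. Of 9 tested MHC class II genes, 1 was called in each direction, near the share of all genes. H2-DMa, which helps load peptide, was higher (0.51), and the protease gene Ctss was lower (-1.42). Lysosomal genes divided, with Cst3 and Psap higher and the cathepsins Ctss, Ctsb, Ctsh and Ctsz lower among 8 tested. Of 4 tested cell cycle genes, Tubb5, Hmgb2 and Stmn1 were higher (list median 1.83). Il1b, the inflammatory cytokine, was lower in Xcr1 members, 1428 ± 937 against 3847 ± 1368 CPM (SD, n = 5; log2 difference -1.62, edgeR adjusted p = 7.78e-05). Ccr7 (-1.72), the costimulatory ligand Cd86 (-1.03), the endotoxin co-receptor Cd14 (-2.86) and the cytokine receptor Il4ra (-1.01) were also lower. Bst2, shared with plasmacytoid cells, was lower by this test as well (-1.46), and plasmacytoid markers were found in 10 of the 91 Cd209a members and in none of the Xcr1 members. The count was 195 without the members that carry plasmacytoid markers and 80 of 581 tested genes when each side was limited to members with a Flt3 UMI.

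DSS was compared with no treatment first as the mean of the effects in both genotypes, on UMIs summed per library. After DSS, members carried more of the matrix glycoprotein Thbs1, the prostaglandin enzyme Ptgs2, the growth factor Vegfa, the lipid transporter Abca1 and the pattern receptors Cd14, Clec4n and Clec4e. They carried less of the potassium channel Kcnn4, the chemokines Cxcl9 and Cxcl10, the LIM protein gene Crip1, the nuclear lamin gene Lmna, the intermediate filament gene Vim, and Irf8. The averaged effect was also negative for the heat shock chaperones Hspd1 and Hsp90aa1, which were not called in wildtype mice alone. Of 3879 genes tested with edgeR's quasi-likelihood test, 135 passed an adjusted p of 0.05 (3.48%), 71 higher (1.83%) and 64 lower (1.65%). None of them was a gene of the rule, and 697 (18%) had an unadjusted p under 0.05. In such sums a change in which cells are members cannot be told apart from a change of RNA per cell. By class, Thbs1, Ptgs2, Vegfa, Abca1 and Clec4n were highest in Itgax-only members, both with and without DSS. The count was 60 with DESeq2, 80 without untreated wildtype 2, 78 and 70 without untreated S203AKI 1 and 2, and 69 without DSS S203AKI 1. It was 46 without the Xcr1 members, which were 48 of 167 untreated and 25 of 150 DSS members.

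Thbs1 (ENSMUSG00000040152) was at 19.5, 31.8, 11.7 and 4.06 CPM in the untreated libraries (wildtype 1 and 2, then S203AKI 1 and 2) and at 259, 142, 380 and 606 CPM after DSS in the same order. All DSS libraries were above all untreated ones, and the log2 difference was 4.28 (SE 0.35, edgeR adjusted p = 3.15e-06). Genes described for DSS here and below were picked as calls, so a lack of overlap between treatments adds no support for them. It was highest in Itgax-only members, at 93.2 CPM untreated and 1093 CPM after DSS. In the same order it was at 8.91 and 277 CPM in Cd209a, 2.37 and 138 in Xcr1, and 10.5 and 13.7 in Flt3-only members. Ptgs2, the inducible cyclooxygenase, was at 58.6, 114, 46.9 and 20.3 CPM untreated and 832, 273, 170 and 101 CPM after DSS. By class, untreated and after DSS, it was at 208 and 1250 CPM in Itgax-only and 89.1 and 326 in Cd209a members. Xcr1 members had 0 and 49.8 CPM, and Flt3-only members 66.25 and 81.9. By library, DSS S203AKI 2 lay below untreated wildtype 2, so the groups overlapped. The log2 difference was 2.30 (SE 0.37, edgeR adjusted p = 0.0025, with no call when DSS S203AKI 1 was left out). Vegfa, the angiogenic growth factor, was at 16.2 to 35.2 CPM untreated and 86.1 to 254 CPM after DSS (2.11, SE 0.38), also without a call when that library was left out. Ifitm1, of the same membrane family as Ifitm3, was at 723, 591, 485 and 812 CPM untreated and 3136, 2401, 2331 and 1350 CPM after DSS, with no overlap (1.75, SE 0.18, edgeR adjusted p = 6.64e-05).

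Inhba, which encodes the activin A subunit, held 2 UMIs over the untreated and 62 over the DSS libraries, a depth-scaled ratio of 40.4. Its exact counting interval of 10.7 to 341 takes each UMI as an independent draw and is therefore too narrow. These UMIs came from 12 members, of which 1 held 25%, and 1 DSS library (wildtype 2) held none. After DSS, Inhba was at 321 CPM in Itgax-only and 74.1 CPM in Cd209a members, and at 0 in Xcr1 and Flt3-only members. The call was lost without DSS wildtype 1 or DSS S203AKI 1. Abca1, which exports cholesterol, was at 3.91 to 7.81 CPM untreated and at 93.7, 56.2, 71.3 and 12.6 CPM after DSS, with no overlap (log2 difference 3.39, SE 0.58, edgeR adjusted p = 0.00302). Its call was lost without DSS S203AKI 1. The mature dendritic cell gene Fscn1 (4.12) was also called. It rests on 13 members and lost its call when any of 4 libraries was left out (both untreated S203AKI libraries, DSS wildtype 1 and DSS S203AKI 1).

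The genes that fell included Kcnn4 (ENSMUSG00000054342), a calcium-activated potassium channel, at 125, 82.6, 137 and 195 CPM untreated and 33.1, 15, 33.9 and 25.2 CPM after DSS. The groups did not overlap, and the log2 difference was -2.32 (SE 0.32, edgeR adjusted p = 0.00055). Tnni2, a troponin gene, was at 69.1 to 149 CPM untreated and 0 to 33.9 CPM after DSS (-2.46), and Denr, a translation re-initiation factor, at 78.1 to 126 against 0 to 33.9 CPM (-1.94). Cxcl10, the interferon-induced CXCR3 ligand, was at 187 to 330 CPM untreated and at 27.6, 221, 27.1 and 50.5 CPM after DSS. The second DSS wildtype library overlapped the untreated range (-2.03, SE 0.41, edgeR adjusted p = 0.00966, without a call when DSS S203AKI 1 was left out). Il22ra2, the soluble IL-22 binding protein, held 55 UMIs untreated and none in any DSS library. Were each UMI an independent draw, this would be at least 14.1-fold lower against a floor of 3 UMIs over the DSS group. The 55 UMIs came from 6 members, 1 of which held 54.5%, so they were not independent and that figure is no firm minimum. The call was lost without untreated wildtype 2 or untreated S203AKI 1. Calls for the histone gene Hist1h2ap (-3.54) and for Tppp3 (-2.12) were lost without 4 and 3 single libraries.

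**Figure D3:**
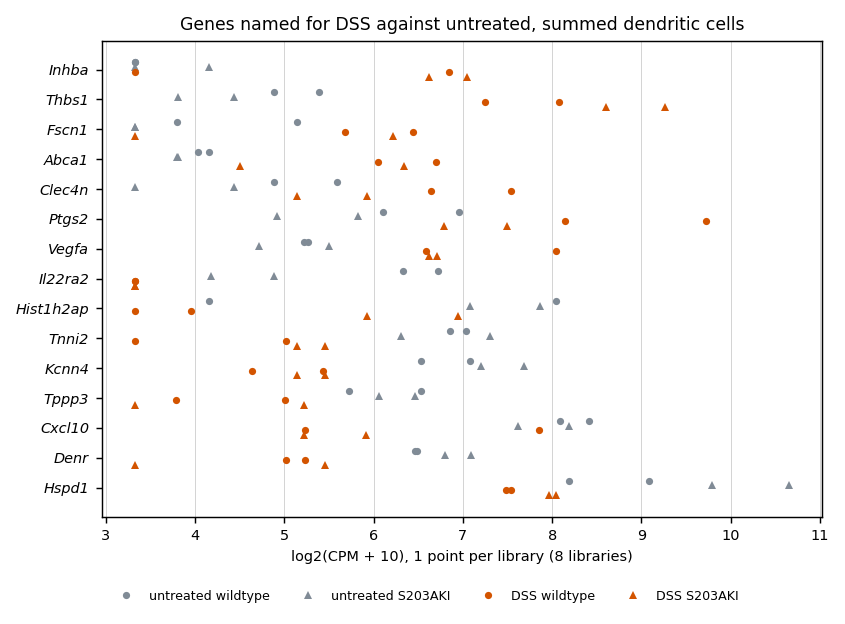
Levels of genes named in the DSS comparison, as log2(CPM + 10) on the x axis, with 1 point per library in the 4 groups. Thbs1 lies at 4.06 to 31.8 CPM in the 4 untreated libraries and at 142 to 606 CPM in the 4 DSS libraries.

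Across the gene lists, counts are set against 1.83% of all tested genes higher and 1.65% lower. Of 9 tested pattern recognition genes, 3 rose, with a list median of 0.996 against -0.02 for all genes tested. Cd14 was at 207, 219, 168 and 195 CPM untreated and 854, 416, 407 and 404 CPM after DSS (log2 difference 1.30, edgeR adjusted p = 0.0025), while Clec4n rose by 2.39 and Clec4e by 1.83, both C-type lectins for microbial and dead-cell ligands. Clec4n lost its call without untreated S203AKI 2 or DSS S203AKI 1 (edgeR adjusted p up to 0.292). None of 10 tested MHC class II genes was called (median -0.19), and H2-Aa was at 6589 to 7234 CPM untreated and 6813 to 7532 CPM after DSS. In MHC class I presentation 2 of 12 fell, Psmb8 (-0.77) and H2-Q7 (-0.76). None of 9 tested costimulation genes, 10 migration receptors, 6 interferon-induced genes or 14 cell cycle genes was called. The migration receptors had a median of 0.60, and Ccr7 was at 266 to 504 CPM untreated and at 1516, 951, 655 and 114 CPM after DSS, where DSS S203AKI 2 was below every untreated library. Of 8 tested chemokines, Cxcl9 (-1.61) and Cxcl10 fell.

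Among S100, annexin and LIM protein genes, 5 of 13 fell and none rose (median -0.65). Crip1, a small LIM protein, was at 2601, 3861, 2966 and 2900 CPM untreated and 1334, 1521, 1391 and 1363 CPM after DSS, with no overlap (log2 difference -1.19, SE 0.13, edgeR adjusted p = 8.9e-05). Lmna, which encodes nuclear lamins A and C, was at 356 to 508 CPM untreated and 86.1 to 240 CPM after DSS (-1.74). S100a10 (-1.20), Lgals3 (-0.87) and Vim (-0.79) fell as well. Of 16 lineage transcription factors, Irf8 fell, from 687, 587, 688 and 491 CPM to 435, 371, 373 and 126 CPM (-0.91, edgeR adjusted p = 0.0237), and Tcf4, a pDC regulator, rose (1.15). Irf8, Crip1 and Lmna did not overlap between treatments, but these genes were picked as calls, so a lack of overlap adds no support. Irf8 and Lmna were both higher in Xcr1 than in Cd209a members. By class, untreated and after DSS, Lmna was at 706 and 188 CPM in Xcr1 and 245 and 29.6 in Cd209a members. It was at 300 and 208 CPM in Flt3-only and 373 and 95.6 in Itgax-only members. Irf8 was at 1002 and 764, 196 and 74.1, 387 and 420, and 574 and 150 CPM in the same order. The part of the Xcr1 share in these falls was not tested. Of 13 lysosomal genes, the protease Lgmn rose (1.94) and Cst3 fell (-0.59). In the list of heat shock and dissociation stress genes, 4 of 23 rose, the early-response genes Junb, Zfp36, Ier3 and Dusp1, and 5 fell, the chaperones Hspd1, Hsp90aa1, Hspe1, Hsp90ab1 and Hsph1. Hspd1 was at 281, 533, 875 and 1604 CPM untreated and 176, 169, 254 and 240 CPM after DSS, so the untreated libraries were high and most of all the S203AKI ones (-1.84, SE 0.23, edgeR adjusted p = 0.000242). In wildtype mice alone none of the 23 was called (list median 0.03), with Hspd1 at -1.26 (edgeR adjusted p = 0.0867) and Hsp90aa1, whose wildtype libraries overlapped, at -0.59 (0.232).

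Several values moved with treatment beside these genes. Summed over the 9 macrophage markers that the rule did not use, all of them seen, members were at 258 to 397 CPM in untreated wildtype, 329 to 367 in untreated S203AKI, 431 to 502 in DSS wildtype and 594 to 1148 in DSS S203AKI, against 23237 CPM in the macrophage gate. Thbs1 was at 1456 CPM, Abca1 at 682 CPM and Kcnn4 at 36.5 CPM in the macrophage gate as a whole. Within that gate, Thbs1 ran from 419 to 1083 CPM in untreated and from 2008 to 3438 CPM in DSS libraries, Kcnn4 from 32.2 to 61.9 and from 9.33 to 25.8 CPM, and Crip1 from 830 to 1258 and from 266 to 411 CPM. Ptgs2 ran there from 143 to 348 CPM in untreated and from 680 to 961 CPM in DSS libraries. The 10 mature dendritic cell markers outside the rule, all seen, summed to 938 to 1111 CPM untreated, 1888 to 2354 in DSS wildtype and 744 to 1462 in DSS S203AKI. The nuclear RNA Malat1 fell (-0.50), and Gm42418, a gene model overlapping ribosomal RNA, was at 13953 to 33803 CPM untreated and 34181 to 60410 CPM after DSS (1.12). The part of these values in the calls above was not tested.

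Because the Xcr1 share varied between libraries, each DSS call was set beside the difference between subsets. Of the 71 genes higher after DSS, 37 were also tested between Xcr1 and Cd209a members, and 19 of those were lower in Xcr1 members, none higher and 18 not called. Of the 64 lower after DSS, 41 were tested there, and 18 were higher in Xcr1 members, 3 lower and 20 not called. The share called between subsets among all genes tested was 21.3%, with 12.1% lower and 9.2% higher in Xcr1 members. The same libraries entered both comparisons, and these counts were not tested. Refitted without the 73 Xcr1 members, Thbs1 (3.69, edgeR adjusted p = 5.31e-06), Ptgs2 (1.87, 0.0138), Abca1 (3.39, 0.0117), Kcnn4 (-2.58, 0.003), Hspd1 (-1.78, 0.00413), Cxcl10 (-2.85, 0.003) and Denr (-2.42, 0.00465) passed the threshold. Inhba (5.20, edgeR adjusted p = 0.036) and Il22ra2 (-6.23, 0.00635) passed too. Both were at 0 CPM in Xcr1 members with and without DSS, so this refit left their UMIs as they were and is no check on them. Fscn1, Clec4n, Vegfa, Hist1h2ap and Tnni2 then had the same direction with adjusted p from 0.0551 to 0.0901, and Tppp3 was not among the genes tested.

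**Figure D4:**
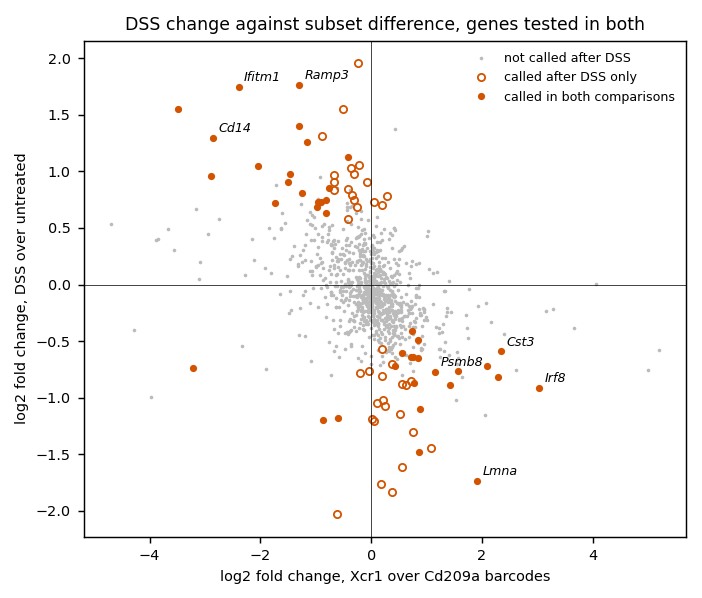
Log2 difference of DSS over untreated libraries (y axis) against the log2 difference of Xcr1 over Cd209a members (x axis), 1 point per gene for the 986 genes tested in both. Of the 78 called after DSS, 40 were also called between subsets, and those higher after DSS lie at the left.

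In wildtype mice alone, the comparison named in the series' design, 38 of 3879 genes passed (0.98%), 21 higher (0.541%) and 17 lower (0.438%). An unadjusted p under 0.05 was reached by 554 (14.3%). Thbs1 (log2 difference 2.87, edgeR adjusted p = 0.00483), Ifitm1 (2.06, 0.000813) and Ramp3 (1.88, 0.002), a co-receptor for calcitonin family peptides, rose and were called whichever library was left out. Each had an adjusted p of 0.0524 without the Xcr1 members, and without members with UMIs of other lineages Thbs1 was at 0.349 and Ifitm1 at 0.069. Ramp3 was at 187 and 121 CPM in the untreated wildtype libraries and at 612 and 528 CPM after DSS. Ptgs2 (2.59), Abca1 (3.27), Vegfa (2.49), AA467197 (2.26) and Flrt3 (1.93) rose as well, each losing its call without at least 1 library, DSS wildtype 1 in every case. Lmna fell (-2.29, edgeR adjusted p = 0.000813), from 480 and 508 CPM to 121 and 86.1 CPM, and was called whichever library was left out and without the Xcr1 members (0.0208), but not in members with a Flt3 UMI (0.109). Il22ra2, Tnni2, Hist1h1b, Entpd1 (the ATP-hydrolysing CD39), Kcnn4, Plec and Hist1h1e fell in the full fit, and each call was lost without at least 1 library. Of the 21 genes that rose, 8 were tested between subsets and 7 of these were lower in Xcr1 members. Of the 17 that fell, 11 were tested, and 5 were higher and 1 lower in Xcr1 members. Among all genes tested between subsets, 9.2% were higher and 12.1% lower in Xcr1 members. In DSS wildtype 1, 2 of 17 subset-marked members carried Xcr1, and the count was 14 without that library, 13 without untreated wildtype 2 and 2 without the Xcr1 members. By list, Cd14 was the 1 of 9 pattern recognition genes that rose, and Lmna, Crip1 and Vim fell among 13 S100, annexin and LIM genes.

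In untreated mice, S203AKI members carried more of 4 chaperone transcripts than wildtype members. Of 3879 genes, 4 passed (0.103%) and 168 (4.33%) had an unadjusted p under 0.05. All 4 were higher, namely Hsp90aa1, Dnajb1, Hspd1 and Hspb1, chaperones induced by protein damage. Hsp90aa1 (ENSMUSG00000021270) was at 1332 and 2150 CPM in wildtype and 4424 and 5670 CPM in S203AKI libraries (log2 difference 1.58, SE 0.21, edgeR adjusted p = 0.00464). After DSS it was at 1339 and 1015 CPM in wildtype and 1659 and 1350 CPM in S203AKI libraries, with the lower S203AKI value close to the higher wildtype value. Dnajb1, the HSP70 partner, was at 62.5 and 111 CPM against 285 and 341 CPM untreated (1.87, SE 0.31, edgeR adjusted p = 0.0256). Hspd1, the mitochondrial chaperonin, was at 281 and 533 CPM against 875 and 1604 CPM (1.64, SE 0.29, edgeR adjusted p = 0.0336). Hspb1 was at 7.81 and 3.18 CPM against 121 and 97.5 CPM (4.29, edgeR adjusted p = 0.0336), from 13 members of which 1 held 40.9% of its UMIs.

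The heat shock and dissociation list had 3 of 23 tested genes called and a median of 0.43, against 0.00 for all genes. The called genes are among those that tissue digestion is known to raise, and a part of digestion in this difference was not tested. Early-response genes of the same list, such as Fos, Jun and Dusp1, were not called. Nor was the heat shock gene Hspa1a of that list, whose untreated S203AKI libraries lay far apart, at 817 and 106 CPM. It was at 89.8 and 31.8 CPM in untreated wildtype. In the macrophage gate of the same libraries, Hsp90aa1 was at 1931 to 3259 CPM in untreated wildtype and 4809 to 6598 CPM in untreated S203AKI, and Dnajb1 at 177 to 318 and 841 to 928 CPM, so the higher values were not limited to dendritic cells. Among fits that left out 1 library, Hsp90aa1 lost its call without untreated S203AKI 2 (adjusted p = 0.0728), and the other 3 lost it without 3 or 4 single libraries, untreated S203AKI 2 among them each time. The count was 2 without either untreated S203AKI library, 8 to 10 without any one wildtype library, and 0 when members with UMIs of other lineages were removed. No gene was called lower with all libraries, and the smallest p-values in that direction belonged to Slc7a11 (log2 difference -2.41, edgeR adjusted p = 0.117, but called in 3 of the 8 fits without 1 library), Itga4 (-1.14, 0.169) and Edem1 (-1.57, 0.289).

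**Figure D5:**
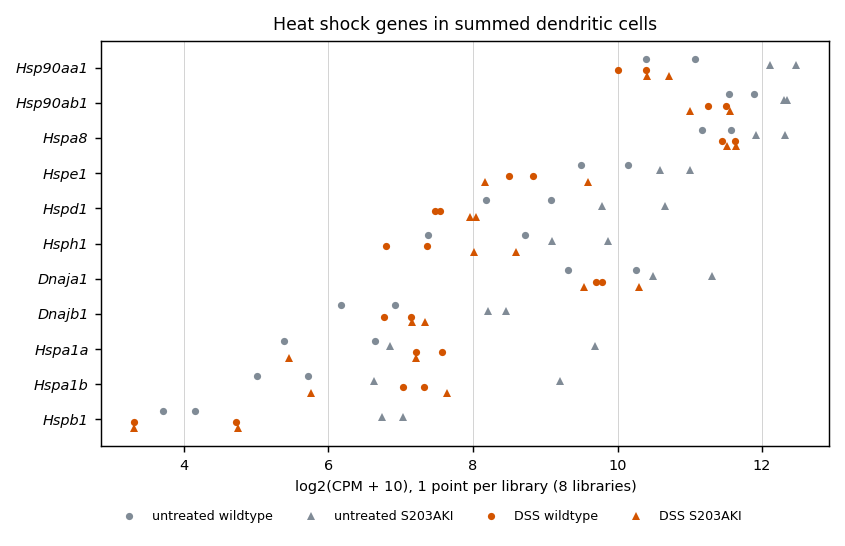
Levels of heat shock genes, as log2(CPM + 10) on the x axis, with 1 point per library in the 4 groups. The 2 untreated S203AKI libraries lie above the 2 untreated wildtype libraries for Hsp90aa1, at 4424 and 5670 CPM against 1332 and 2150 CPM.

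After DSS, no gene passed between S203AKI and wildtype members (0%), with 222 of 3879 (5.72%) at an unadjusted p under 0.05 by edgeR and 1 call by DESeq2. Leaving out single libraries gave 0 to 10 calls, the most without DSS wildtype 2. The smallest adjusted p was 0.08, for the linker histone gene Hist1h1b, at 5.51 and 44.9 CPM in DSS wildtype and 207 and 328 CPM in DSS S203AKI (log2 difference 3.07, SE 0.53). In untreated libraries it was at 109 to 254 CPM. Tnfaip2, an NF-kB target, was at 496 and 315 CPM in DSS wildtype against 139 and 126 CPM in DSS S203AKI (-1.60, edgeR adjusted p = 0.168), and Zbtb18 at 176 and 157 against 50.9 and 25.2 CPM (-1.94, 0.264). Il22, a cytokine of lymphocytes, was at 353 and 131 CPM in DSS wildtype and at 3.39 and 0 CPM in DSS S203AKI (edgeR adjusted p = 0.168), from 6 members of which 1 held 51.2% of the UMIs. The untreated libraries had 93.7 and 0 CPM of Il22 in wildtype and 3.91 and 0 CPM in S203AKI. Tpm2 had a log2 difference of 3.17 (edgeR adjusted p = 0.478) that turned to -4.43 without DSS S203AKI 1, and 1 member held 51.2% of its UMIs.

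The difference between the DSS effects in the 2 genotypes was tested as an interaction. None of 3879 genes passed (0%), with 185 (4.77%) at an unadjusted p under 0.05 by edgeR, a smallest adjusted p of 0.7 and no call by DESeq2. It gave 4 calls without untreated wildtype 1, 2 without untreated S203AKI 2 and none without each of the other libraries. Hist1h4d (log2 difference of effects 2.81), Hist1h1b (2.48), Rab7b (1.66), AA467197 (-2.73), Hsp90aa1 (-1.24) and Hspa1a (-4.43) had the smallest p in their direction. AA467197 illustrates the spread. It was at 43.0 and 79.4 CPM in untreated and 342 and 270 CPM in DSS wildtype, and at 106 and 207 CPM in untreated and 163 and 25.2 CPM in DSS S203AKI.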

How the data were processed

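Member barcodes and gene lists were chosen with earlier results of these data known. The values were whole-number UMI counts per gene and barcode, deposited by the authors in 1 table per library. Cell Ranger 3.1.0, Seurat 4.0.1 and the build mm10 are named in the submitters' processing notes, with no role given. In 7 tables the rows were numbered, and their order was taken from the deposited list of 31053 symbols and checked against the table with identifiers (98.5% of symbols equal, lowest correlation of log counts across rows 0.975, and 0.318 at most with shifted rows). No doublet caller was run. The limits on other lineages stood in for it. A stricter limit, without UMIs of other lineages, was an alternative and kept 111 of the 317 members. Counts were summed over members per library and tested with edgeR 4.0.16 in R 4.3.3 (TMM, filterByExpr, quasi-likelihood, 4 group means in 1 fit, Benjamini-Hochberg over all genes tested). DESeq2 1.42.0 was an alternative. Shares were tested over libraries by exact permutation in scipy 1.17.1. Members numbered 10 to 58 per library, and their summed depth of 79258 to 314914 UMIs limits precision. Thinned values drew 1000 UMIs per barcode, leaving out 1 member.

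Named genes were the 8 calls with the largest log2 difference in each direction (12 between Xcr1 and Cd209a members) with a group mean of at least 50 CPM, without genes of the rule, immunoglobulin, T cell receptor or mitochondrial genes and unnamed models, plus members of the lists. With fewer than 3 calls in a direction, the smallest p-values filled up to 3. One such gene is not reported here. Malat1 and Gm42418 were chosen after their values were seen. On simulated data the DSS test averaged over genotypes, on 3879 genes, recovered 51% of 2-fold and 94% of 8-fold changes, with 7 false calls. The test in wildtype alone recovered 17% and 91%.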

Additional observations from a re-analysis of the deposited data

Results flagged for a closer look

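The share of quality-passing barcodes that met the dendritic cell rule was 0.296% in DSS wildtype 1, farther from the next wildtype library, 0.373%, than Dixon's limit for 4 values allows. The second DSS S203AKI library, though lower, at 0.0967%, was not beyond that limit among the S203AKI libraries. Xcr1 members made up 0% of the members with Xcr1 or Cd209a in DSS S203AKI 2, against 38.9% in the next S203AKI library. That value rests on 2 barcodes. Chance alone marks about 5% of groups in this way.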

How the results depend on the processing

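No paired analysis was run because the titles carry animal numbers and no replicate number shared between groups. The count of genes called for DSS averaged over genotypes (135) was 60 with DESeq2, 211 without a filter on low counts, 45 in members with a Flt3 UMI, 41 in members without UMIs of other lineages and 46 without Xcr1 members, and 69 to 151 with single libraries left out. In wildtype alone (38) the same settings gave 23, 116, 6, 22 and 2, and 13 to 47. For S203AKI against wildtype in untreated mice (4) they gave 2, 24, 4, 0 and 2, and 2 to 10. For S203AKI against wildtype after DSS (0) they gave 1, 39, 0, 7 and 0, with 1 in members without plasmacytoid markers, and 0 to 10 with single libraries left out. For the difference of DSS effects (0) they gave 0, 19, 1, 0 and 0, and 0 to 4. Between Xcr1 and Cd209a members (211) the count was 396 without a filter, 80 in members with a Flt3 UMI and 166 to 189 with single libraries left out. The restrictions leave fewer members. The cause of the other shifts was not tested. Plasmacytoid markers and the removal of Xcr1 members were chosen after seeing the data. The Cd74 denominator turned the share difference of DSS to 0.568 points, and Tpm2 after DSS ran from -4.43 (without DSS S203AKI 1) to 3.72 with single libraries left out. With single libraries left out, the share differences ran from -0.100 to -0.00648 (DSS) and -0.105 to -0.0115 (S203AKI), and the Xcr1 share differences from -29.8 to -13.9 and -21.5 to -0.260 points. For single named genes, 806 values kept direction and side of the threshold, 126 lost and 30 gained a call.

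Members were few, so changes in genes with low counts and in DSS S203AKI 2 are poorly measured. DSS S203AKI 2 held 10 members. Transcripts of neighbouring cells captured in droplets can enter such sums and were not removed.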

Other observations

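Members that carried Itgax as their only rule marker stood nearest to macrophages in several values. Beside Apoe and Lyz2, they had Csf1r at 175 CPM, against 4.98 CPM in Xcr1 members, 101 CPM in Cd209a members and 789 CPM in the macrophage gate. Itgam, the integrin chain CD11b, was at 150 CPM in them and 6.64 CPM in Xcr1 members. Zbtb46 was lowest in them, at 10.5 CPM. Cx3cr1, a chemokine receptor of resident macrophages, was at 3.498 CPM in them and 201 CPM in the macrophage gate. The cytokine gene Il6 was seen in 13 members and was at 101 CPM in Itgax-only members, with 165 CPM in DSS wildtype 1 and 0 to 20.3 CPM in the other libraries. Il23a was seen in 3 members, with 121 CPM in DSS wildtype 1. These are values without a test.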
